A study of Mus musculus with 8 samples.

Results

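The genes described here are 10 components of fibroblast growth factor (FGF) signalling in mouse embryos: the secreted ligands Fgf3, Fgf4, Fgf5, Fgf8, Fgf15 and Fgf17 and the receptors Fgfr1, Fgfr2, Fgfr3 and Fgfr4. They were chosen by symbol, without use of their values, and all 10 were present among the 19950 genes of the deposited table. The study profiled whole embryos at embryonic day 6.5, around the onset of gastrulation, by bulk RNA sequencing. One group was labelled WT and the other was mutant for both Axin1 and Axin2, with 4 embryos in each, and the comparison asks how gene expression differs between these genotypes. The sources used here give neither the Axin alleles nor their zygosity, any Cre driver, the strain or the litters, so p-values measure only the spread between these 8 libraries. Libraries are called by genotype and by the number in their column names, which is 1, 2, 4 or 5 in each genotype.

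FGF ligands bind receptor tyrosine kinases together with heparan sulfate or a klotho coreceptor, and the activated receptors signal mainly through RAS and the ERK kinases. In the mouse embryo around gastrulation, Fgf4 is made in the epiblast and supports the trophoblast stem cells of the extraembryonic ectoderm through Fgfr2, and Fgf5 is a marker of the epiblast once it leaves naive pluripotency. Fgf8 and Fgf4 are made in the primitive streak, where FGF signalling through Fgfr1 is required for mesoderm cells to leave the streak. The Axin proteins hold together the complex that targets beta-catenin for degradation, which keeps canonical WNT signalling in check.

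Axin1, a targeted gene, fell from a scaled count of 4565 ± 1081 (SD, n = 4) in WT to 1996 ± 204 (SD, n = 4) in the mutants (limma adjusted p = 0.00269), and transcripts were counted in every mutant library. Axin2 had 266 ± 32.6 and 370.5 ± 113 and did not pass the test (adjusted p = 0.19). Reads assigned to genes ranged from 26615732 to 36778164 per library, and each member had from 61 to 9193 reads in each library. The summed level of 10 epiblast markers was 126425 to 137431 in WT and 29958 to 42827 in the mutants. All 10 passed as lower in the limma test described below, against 7.55% of all tested genes. Of 10 tested maternal decidua genes 7 passed as higher, against 8.03% of all tested genes. The summed decidua level ran from 619 to 2325 in WT and from 5736 to 51446 in the mutants, highest in mutant 4 and mutant 5. Lum, a decidual stroma gene, was at 0 in all 4 WT libraries and in mutant 1. It was at 4.6 in mutant 2, 123 in mutant 4 and 59.4 in mutant 5, and was too low to be tested. Prl8a2, Dcn and Cryab of this list did not pass, and their levels in mutant 1 and mutant 2 were within or below the WT range. Not every gene of the list thus separates the genotypes. In mutant 1, Col1a1 (7837) and Des (7413) made up most of the summed level of 18052. In mutant 2, Col1a1 (3421) made up most of the 5736. Whether the sum in mutant 1 and mutant 2 came from decidua was not tested. The summed decidua level does not overlap between the genotypes, so its part in any difference below cannot be told apart from the genotype. In WT 2 the summed primitive streak markers came to 10142, below the 18659 to 24590 of WT 1, 4 and 5, and Mesp1, a nascent mesoderm gene, was at 5.68 against 658 to 974. Transcripts of the Y chromosome were at or near 0 in WT 2 and WT 5 and abundant in the 6 remaining libraries, called Y-expressing here.

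The FGF genes moved in opposite directions in the mutants. Fgf3 and Fgfr1 rose, Fgf4, Fgf5 and Fgf8 fell, and Fgf15, Fgf17, Fgfr2, Fgfr3 and Fgfr4 did not pass the test. The test was limma on log2(scaled count + 1) with Benjamini-Hochberg adjustment over 15600 genes at 0.05. It called 8.03% of all tested genes higher and 7.55% lower, 15.6% in either direction, against 2 and 3 of the 10 members. edgeR and DESeq2 on the recovered reads called the same 5 members, with 8.08% and 7.49% of all genes called higher and lower by edgeR and 11.7% and 10.3% by DESeq2. The median log2 fold change of the 10 members was 0.23, beside -0.0018 over all genes tested. Values are counts divided by 1 size factor per library, and folds are 2 to the power of the log2 fold change. Because whole embryos were sequenced, fewer cells of a type and less RNA per cell cannot be told apart.

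**Figure D1:**
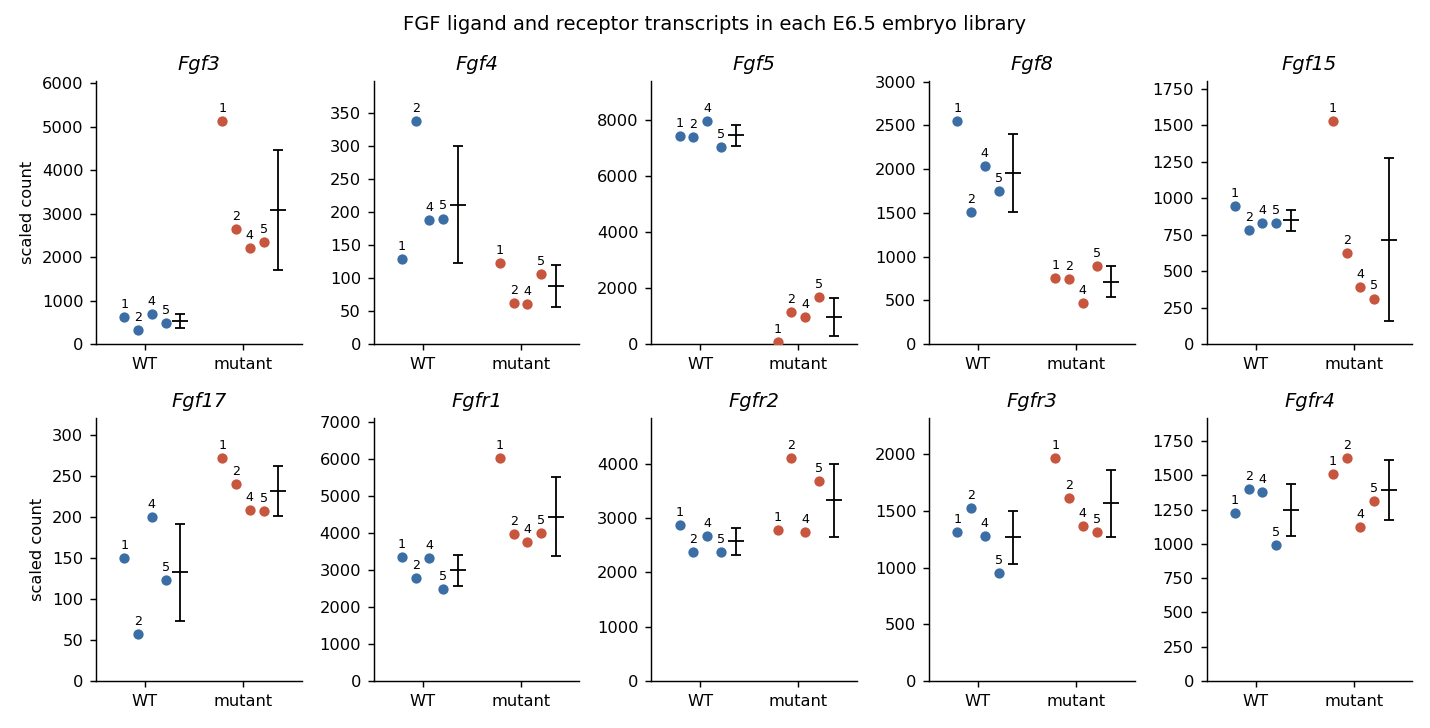
Scaled counts of the 10 FGF genes (linear axes from 0, a panel per gene), with a numbered point for each of the 8 libraries and, beside each genotype, its mean and SD (n = 4). The groups do not overlap for Fgf3, Fgf17 and Fgfr1 (mutants higher) and for Fgf4, Fgf5 and Fgf8 (mutants lower).

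Fgf3, a ligand of the posterior embryo and later of the hindbrain and inner ear, was the member with the largest increase. Its scaled counts were 629, 331, 701 and 490.1 in WT 1, 2, 4 and 5, and 5128, 2654, 2215 and 2346 in mutant 1, 2, 4 and 5. Every mutant library was above every WT library, and mutant 1 stood well above the other mutants. The mean rose from 538 ± 163 to 3086 ± 1374 (SD, n = 4 each), a 5.6-fold increase (log2 fold change 2.49, SE 0.30, 95% interval 1.80 to 3.17, limma adjusted p = 0.00088). The call held in all 20 alternative settings (other scalings, filters and tests, and fits without some libraries), in which the log2 fold change lay between 2.13 and 3.14. It was also kept without mutant 4 and mutant 5, the libraries with the highest decidua level.

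Fgf3 (ENSMUSG00000031074) lies at chr7:144838083-144844436 on the plus strand of GRCm38 and is followed on the same strand by Fgf4 (ENSMUSG00000050917, chr7:144847367-144865243) after 2.931 kb, and by Fgf15 (ENSMUSG00000031073, chr7:144896531-144900953) a further 31.288 kb on. These 3 ligand genes thus lie within 62.871 kb, and in the mutants Fgf3 rose, Fgf4 fell and Fgf15 was not called. Fgf4, which signals to the trophoblast stem cells and, with Fgf8, in the streak, had 129, 338, 189 and 191 in the WT libraries and 123, 62.6, 60.3 and 106 in the mutants. The groups did not overlap, but WT 1 was within a few counts of mutant 1, and WT 2, the library low in streak markers, was the highest. The mean fell from 212 ± 89.1 to 88 ± 31.4 (log2 fold change -1.24, SE 0.34, 95% interval -2.01 to -0.46, limma adjusted p = 0.0399), a 2.36-fold decrease. This call rested on few libraries: it was lost when WT 2, WT 4, WT 5, mutant 2, mutant 4 or mutant 5 was left out (adjusted p from 0.0566 to 0.094), and the log2 fold change was then still negative. In the 6 Y-expressing libraries it was -0.89 (adjusted p = 0.232).

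Fgf5 (ENSMUSG00000029337, chr5:98254184-98277030, plus strand), an epiblast marker, was the member with the largest decrease. Its scaled counts were 7449.7, 7385, 7963 and 7028 in WT, and 73.3, 1146, 967 and 1696 in mutant 1, 2, 4 and 5. The 4 WT libraries were alike and all far above the mutants, which were spread widely, with mutant 1 lowest. The mean fell from 7456 ± 385 to 970.4 ± 674 (log2 fold change -3.61, SE 0.83, 95% interval -5.48 to -1.74, limma adjusted p = 0.0187), 12.2-fold on the log scale. Mutant 1 set the size of that fold: without it the log2 fold change was -2.59, and with edgeR or DESeq2 on the recovered reads it was -2.94. The call was lost without WT 4 (adjusted p = 0.0506) and in the 6 Y-expressing libraries (log2 fold change -3.66, adjusted p = 0.119), and it was kept without mutant 4 and mutant 5.

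The Fgf4 and Fgf3 spans and the gap between them rest on the outermost annotated transcripts of GENCODE, and the RefSeq starts of both genes lie inside those spans. The 250 bases before the RefSeq start site are shown for Fgf3, Fgf4 and Fgf5 because these ligands moved most or lie side by side with opposite changes. Capitals in the Fgf3 sequence mark its match to a TCF/LEF motif, the site type through which beta-catenin acts; sequences are from RefSeq on GRCm38.p6, plus strand.
Fgf3, chr7:144838362-144838611: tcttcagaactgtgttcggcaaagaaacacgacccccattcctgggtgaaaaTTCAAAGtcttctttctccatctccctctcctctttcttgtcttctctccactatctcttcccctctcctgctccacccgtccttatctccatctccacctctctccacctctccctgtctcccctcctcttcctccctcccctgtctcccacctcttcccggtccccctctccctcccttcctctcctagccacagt
Fgf4, chr7:144861136-144861385: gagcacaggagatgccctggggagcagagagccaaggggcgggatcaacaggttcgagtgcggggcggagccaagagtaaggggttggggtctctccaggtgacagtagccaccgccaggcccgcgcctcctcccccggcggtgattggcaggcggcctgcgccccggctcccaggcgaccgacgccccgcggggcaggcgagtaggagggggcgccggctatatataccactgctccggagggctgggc
Fgf5, chr5:98253934-98254183: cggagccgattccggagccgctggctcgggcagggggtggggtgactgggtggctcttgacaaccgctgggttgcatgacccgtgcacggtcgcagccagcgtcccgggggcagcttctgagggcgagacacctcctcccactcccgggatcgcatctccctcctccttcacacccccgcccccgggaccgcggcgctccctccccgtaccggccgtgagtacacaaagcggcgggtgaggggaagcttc
The Fgf3 window holds 4 CpG dinucleotides at 55.2% GC, and those of Fgf4 and Fgf5 hold 21 and 24 at 71.2% and 70.8%, against medians of 6 CpG and 52.4% GC over 32851 promoters. The capital run in Fgf3 reads CTTTGAA on the minus strand, 198 bases before the start. The TCF/LEF forms searched on both strands were CTTTG followed by 2 bases, each A or T, and 14.8% of all promoters of this length hold one. Fgf4 and Fgf5 hold none, which says only that these letters are not in this window. Searched as well on both strands were the T-box forms AGGTGTGA and AGGTGTTA (1.51% of promoters), the octamer ATGCAAAT (1.6%) and the CDX forms TTTATTG and TTTATGG (6.51%). None of those occurs in the 3 windows. RefSeq start sequences were matched for 6 of the 10 members, the others matched being Fgfr2, Fgfr3 and Fgfr4. Fgfr3, which was not called, held a T-box match at -241 and a CDX match at -191 in its window at chr5:33721474-33721723. Fgfr2 and Fgfr4 held no match to any of these motifs.

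Fgf8 (ENSMUSG00000025219, chr19:45736798-45742915, minus strand), the streak ligand needed for mesoderm cells to move away, had 2549, 1508, 2032 and 1751 in WT and 754, 744, 471 and 893 in the mutants. All mutants were below all WT libraries, and WT 1 was the highest. The mean fell from 1960.0 ± 447 to 715 ± 177 (log2 fold change -1.46, SE 0.22, 95% interval -1.95 to -0.98, limma adjusted p = 0.00228), a 2.76-fold decrease. This call held in 19 of 20 settings and was lost only with the decidua level as a covariate (log2 fold change -1.16, adjusted p = 0.211), a fit in which 175 genes of the whole table were called higher and 166 lower. The summed streak markers ran from 10142 to 24590 in WT and from 22671 to 33277 in the mutants. Mixl1 was the largest part of each mutant sum, at 8142 to 16071 against 784 to 6603.5 in WT. The means of Eomes (7314 to 4388), Lhx1 (2943 to 914) and Wnt3 (800 to 533) fell, and those of the remaining markers did not. Of 10 tested, 3 were called higher and 1 lower, where 8.03% and 7.55% of all genes were.

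Fgf17 (ENSMUSG00000022101, chr14:70636203-70642268, minus strand), of the same subfamily as Fgf8, had 150.3, 57.8, 200.1 and 123 in WT and 273, 240.3, 209 and 208 in the mutants. The lowest mutant lay just above the highest WT library, so the groups did not overlap, and WT 2 was lowest. The means were 133 ± 59.3 and 232 ± 30.6 (log2 fold change 0.93, SE 0.34, 95% interval 0.15 to 1.70, limma adjusted p = 0.103). Fgf17 passed in none of the 20 settings, with adjusted p from 0.061 to 0.33. Among all genes tested, 11.2% did not overlap with mutants higher and 11.2% with mutants lower, against 3 and 3 of the 10 members.

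Fgf15, the mouse counterpart of human FGF19, which signals with a klotho coreceptor in the adult, had 950.1, 785, 828 and 833 in WT and 1529, 626, 391 and 313 in the mutants. The WT libraries were close together, mutant 1 was above all of them and the other mutants were below them. The means were 849 ± 70.6 and 715 ± 559 (log2 fold change -0.53, SE 0.42, 95% interval -1.47 to 0.41, limma adjusted p = 0.443). The direction depended on the libraries: without mutant 1 Fgf15 was called lower (log2 fold change -0.99, adjusted p = 0.0188), and without mutant 4 and mutant 5 its log2 fold change was 0.21. Exons of Fgf15 overlap 761 bases of the antisense gene Gm26793, and the cDNA kit does not keep strand, so reads there could come from either gene.

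**Figure D2:**
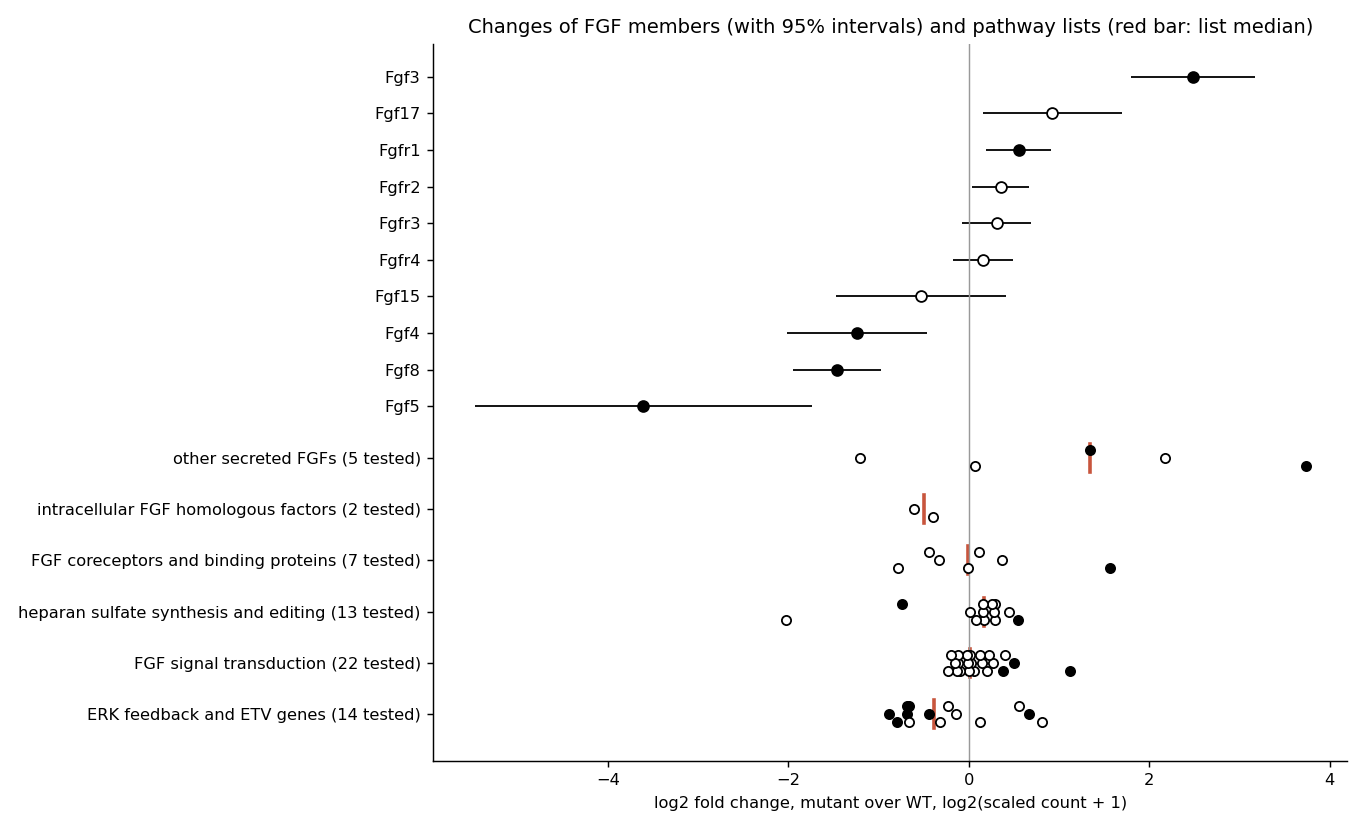
Log2 fold change of each FGF gene, mutant against WT, from limma on log2(scaled count + 1), with 95% intervals (upper rows, 4 libraries per group), and of each tested gene of 6 pathway lists with the list median as a red bar (lower rows); filled points passed the adjusted threshold of 0.05. Fgf3 (2.49) and Fgfr1 (0.55) passed as higher and Fgf5 (-3.61), Fgf8 (-1.46) and Fgf4 (-1.24) as lower, and the intervals of Fgf15, Fgfr3 and Fgfr4 include 0.

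Among the receptors, Fgfr1 was called and the other members were not. Fgfr1 (ENSMUSG00000031565, chr8:25513654-25575718, plus strand), the main FGF receptor of the epiblast and mesoderm, had 3345, 2791, 3319 and 2484 in WT and 6025, 3957, 3753 and 3994 in the mutants. The groups did not overlap, and mutant 1 was far above the others. The mean rose from 2985 ± 421 to 4432 ± 1067 (log2 fold change 0.55, SE 0.16, 95% interval 0.19 to 0.91, limma adjusted p = 0.0462), 1.47-fold. The call lay close to the threshold: it was lost without WT 1, WT 2, WT 4, WT 5, mutant 2 or mutant 5 (adjusted p from 0.0563 to 0.119) and with each library centred on its median (adjusted p = 0.0773). In the 6 Y-expressing libraries the log2 fold change was 0.38 (adjusted p = 0.288).

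Fgfr2 (ENSMUSG00000030849, chr7:130162451-133123350, minus strand), which receives the epiblast signal in extraembryonic ectoderm, had 2879, 2366, 2672 and 2368 in WT and 2771, 4107, 2737 and 3677 in the mutants. Mutant 2 and mutant 5 were above all WT libraries, and mutant 1 and mutant 4 were within the WT range. Its log2 fold change was 0.35 (SE 0.14, 95% interval 0.03 to 0.67, limma adjusted p = 0.13). The Fgfr2 span rests on the outermost annotated transcripts of GENCODE. The bases before its RefSeq start, chr7:130266809-130267058, lie well inside that span, and its merged exon length below covers all annotated transcripts. The summed extraembryonic ectoderm and trophoblast markers were 31205, 51690, 26878 and 41087 in WT 1, 2, 4 and 5 and 42122, 51109, 34334 and 68203 in mutant 1, 2, 4 and 5. Mutant 2 and mutant 5 were highest among the mutants for both, whereas WT 2 and WT 5 had the highest marker sums and the lowest Fgfr2 of the WT libraries.

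Fgfr3 (ENSMUSG00000054252, chr5:33721674-33737068, plus strand), known for its role in cartilage growth, had 1309, 1525, 1277 and 951 in WT and 1967, 1613, 1367 and 1314 in the mutants. The groups overlapped, with a log2 fold change of 0.31 (SE 0.17, 95% interval -0.07 to 0.69, limma adjusted p = 0.263). Fgfr4 (ENSMUSG00000005320, chr13:55152640-55168759, plus strand), an endodermal and hepatic receptor that works with the klotho coreceptor Klb, had 1228, 1401, 1376 and 991 in WT and 1510.3, 1628, 1123 and 1313 in the mutants. Its log2 fold change was 0.16 (SE 0.15, 95% interval -0.17 to 0.49, limma adjusted p = 0.531), so changes beyond 0.49 lie outside the interval. Neither passed in any of the 20 settings. Exons of Fgfr3 overlap 998 bases of G630022F23Rik on the other strand and exons of Fgfr1 overlap 164 bases of antisense Gm16159, and 314 exon bases of Fgfr2 are shared with Ctbp2 on its own strand.

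To compare genes with each other, scaled counts were divided by the length of each gene's merged exons. On this per-kb scale the WT ligands were ordered Fgf5 (2981), Fgf8 (1452), Fgf15 (278), Fgf3 (231), Fgf17 (78.6) and Fgf4 (66.2), where the ranges of Fgf15 and Fgf3 overlapped, as did those of Fgf17 and Fgf4. In the mutants the order was Fgf3 (1327), Fgf8 (529.9), Fgf5 (388), Fgf15 (234), Fgf17 (138) and Fgf4 (27.5). Among the mutants only Fgf3 above Fgf8, and Fgf17 above Fgf4, were neighbours in that order whose ranges did not overlap. The WT receptors were ordered Fgfr4 (353), Fgfr1 (302), Fgfr2 (249) and Fgfr3 (177) and the mutant ones Fgfr1 (449), Fgfr4 (393), Fgfr2 (322) and Fgfr3 (219). The ranges of neighbouring receptors overlapped except between Fgfr2 and Fgfr3 in WT. Within single libraries, however, each WT receptor was above the next in that order in 4 of 4. In the mutants Fgfr1 was above Fgfr4 in 3 of 4, Fgfr4 above Fgfr2 in 4 and Fgfr2 above Fgfr3 in 3.

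Fgf5 was the largest part of the ligand sum in WT and Fgf3 the largest in the mutants. Fgf5 made up 58.9% ± 4.37 of the summed per-kb level of the 6 ligands in WT (53.4% to 64.1%) and 16.2% ± 10.8 in the mutants (0.839% to 26%). Fgf3 made up 4.48% ± 1.03 in WT (3.08% to 5.54%) and 48.9% ± 10.3 in the mutants (38.7% to 63.1%). Fgf8 was at 28.3% ± 4.02 and 20.3% ± 4.2, and Fgf17 at 1.51% ± 0.59 and 5.33% ± 0.807. The summed ligand level per kb was 5087 ± 492 in WT and 2643 ± 634 in the mutants, and the summed receptor level 1081 ± 126 and 1383 ± 188 (SD, n = 4 each). Of the receptor sum, Fgfr1 made up 28.0% ± 1.91 and 32.3% ± 4.86 and Fgfr4 32.6% ± 2.26 and 28.4% ± 1.78. These sums and shares were not tested.

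**Figure D3:**
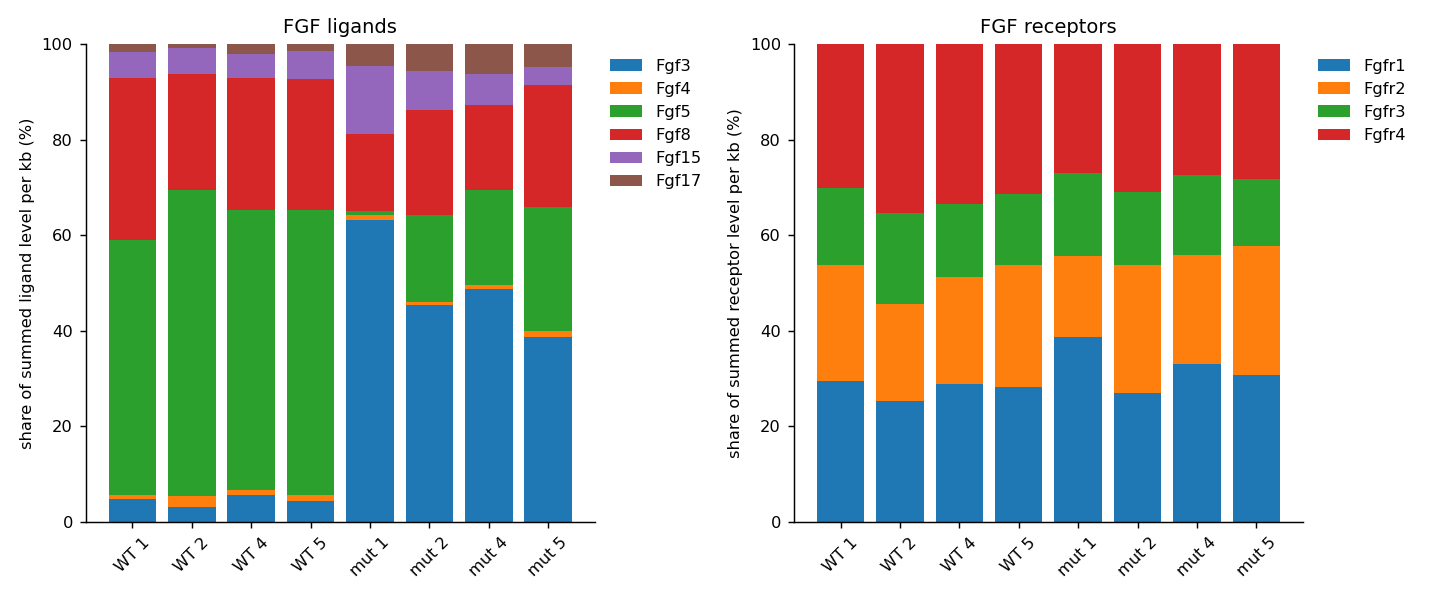
Share of each FGF ligand (of the 6) and each receptor (of the 4) in the summed per-kb level, in percent, as stacked bars for each of the 8 libraries (mut, mutant). Fgf5 takes 53.4% to 64.1% of the ligand sum in the WT libraries, and Fgf3 38.7% to 63.1% in the mutants.

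Ratios within each library compared the shifts of paired members directly. Fgf8 to Fgf17, 2 ligands of a subfamily, had a log2 ratio of 3.98 ± 0.56 in WT and 1.59 ± 0.388 in the mutants, a difference of -2.39 (exact two-sided permutation test, p = 0.0286, the smallest 4 against 4 allows, 0.0381 adjusted over 4 ratios). The ratio was lower in 4 of 4 mutants than in any WT library. That was fixed beforehand, since in all mutants Fgf8 was lower and Fgf17 higher than in any WT library. The p-value of this ratio thus adds no support to the values of the single genes. Fgf8 to Fgf5 differed by 2.14 and Fgf4 to Fgf5 by 2.37, each with exact p = 0.0286 and 0.0381 adjusted over the 4 ratios. Mutant 1 carried much of both: without it the differences were 1.09 and 1.17. Neither held when any WT library was left out (exact p = 0.0857 and 0.114), and Fgf4 to Fgf5 did not hold without mutant 1 (exact p = 0.0571). The log2 ratio of Fgfr1 to Fgfr2 was 0.21 ± 0.10 in WT and 0.41 ± 0.52 in the mutants (exact p = 0.6), with 1.12 in mutant 1 and -0.05 in mutant 2.

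**Figure D4:**
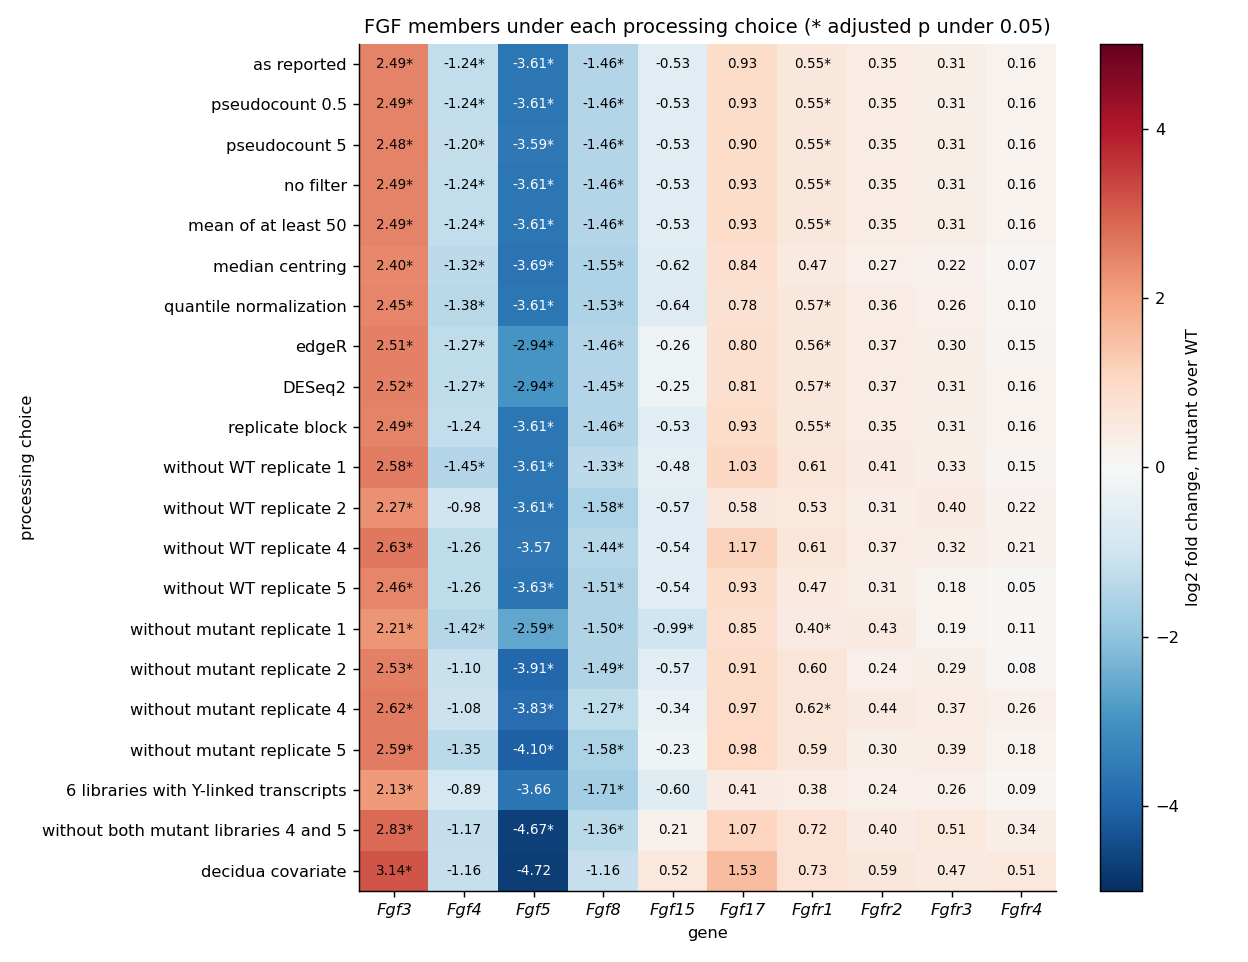
Log2 fold change of each FGF gene (colour) under the main test and 20 alternative settings, with an asterisk where the adjusted p was under 0.05; the fit on libraries with Y-linked transcripts is the Y-expressing one. Fgf3 passed in all 20 settings, Fgf8 in 19, Fgf5 in 17, Fgf4 and Fgfr1 in 10 each, Fgf15 in 1 and Fgf17, Fgfr2, Fgfr3 and Fgfr4 in none.

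Other secreted FGFs rose or did not pass. Of 12 listed, 7 were in the table and 5 were tested, 2 passed as higher and none as lower (median log2 fold change 1.35). Over all genes tested, 8.03% were called higher and 7.55% lower. Fgf10, a ligand for Fgfr2 in limb and lung, rose from 379 ± 75.9 to 959 ± 107, with 398, 316, 479 and 324 in WT and 1119, 913, 898 and 905 in the mutants (limma adjusted p = 0.000649, log2 fold change 1.35, SE 0.15). Fgf18, a ligand of skeletal and lung development, was near the floor in WT at 10.2, 8.53, 5.2 and 14.2 and reached 282, 148, 65 and 113 in the mutants (limma adjusted p = 0.00101, log2 fold change 3.74, SE 0.47). Both were called in all 20 settings. Fgf2, chosen after its values were seen, was at 4.74 to 17.6 in WT, 12.9 in mutant 1 and 9.21 in mutant 2, and at 300.3 in mutant 4 and 169 in mutant 5, the libraries with the highest decidua level. It did not pass with limma (log2 fold change 2.18, adjusted p = 0.213) and passed with DESeq2 (log2 fold change 3.42, adjusted p = 0.0024). Of the intracellular homologous factors, which do not act as secreted ligands, Fgf13 (log2 fold change -0.60, adjusted p = 0.22) and Fgf11 (-0.40, adjusted p = 0.461) were tested and did not pass.

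Of 7 tested coreceptors and binding proteins, 1 passed as higher (list median -0.01), where 8.03% of all genes were called higher. Fgfrl1, an FGF receptor-like protein without a kinase domain, had 604, 701, 799 and 555 in WT and 2836, 2035, 1371 and 1848 in the mutants. It rose from 665 ± 108 to 2023 ± 610.5 (limma adjusted p = 0.00135, log2 fold change 1.57, SE 0.21) and was called in all 20 settings. Of 13 genes of heparan sulfate synthesis and editing, Ugdh, which makes a sugar precursor of heparan sulfate, rose (log2 fold change 0.54, limma adjusted p = 0.0129) and Hs6st1, a sulfotransferase, fell (log2 fold change -0.74, limma adjusted p = 0.00368). The median of that list was 0.17, and 8.03% and 7.55% of all genes were called higher and lower. In the 6 Y-expressing libraries Ugdh did not pass (adjusted p = 0.075).

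Of 22 listed genes of FGF signal transduction, not all of them between the receptors and ERK, 3 passed as higher and none as lower (median 0.02). Of all genes, 8.03% were called higher. Rps6ka3, a kinase below ERK, rose from 132 ± 4.88 to 297 ± 80.6 (limma adjusted p = 0.00631, log2 fold change 1.12, SE 0.20). Frs2, the adaptor that docks to the receptors, had a log2 fold change of 0.50 (limma adjusted p = 0.0256), and Ptpn11, the phosphatase SHP2, one of 0.38 (limma adjusted p = 0.0437). The Frs2 call was lost without WT 1, WT 2, WT 5 or mutant 5, and the Ptpn11 call without WT 1, WT 2, WT 4, WT 5, mutant 1, mutant 4 or mutant 5. Rps6ka3 and Frs2 were highest in mutant 4 and mutant 5, and without both libraries Frs2 did not pass (adjusted p = 0.0923). In the 6 Y-expressing libraries none of the list was called higher, with Rps6ka3 at adjusted p = 0.061, nor was any with the decidua covariate.

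Of 14 tested genes induced by ERK signalling, among them feedback inhibitors and ETS factors, 6 were called lower and 1 higher (median log2 fold change -0.38), where 7.55% and 8.03% of all genes were. Etv5, an ETS factor used as a readout of FGF signalling, had 9618, 8743, 9553 and 8771 in WT and 5774, 5423, 4846 and 5139.5 in the mutants, a decrease from 9171 ± 479 to 5296 ± 397 (limma adjusted p = 0.000178, log2 fold change -0.79, SE 0.07), called in all 20 settings. Spry1, a receptor kinase inhibitor of the Sprouty family, fell from 2135 ± 212 to 1341 ± 79.2 (log2 fold change -0.67, limma adjusted p = 0.00145). Etv4 fell by 0.45 (limma adjusted p = 0.00822) and Spry4 fell by 0.69 (limma adjusted p = 0.0113) on the log2 scale. The remaining calls, named after their values were seen, were Etv1 (-0.88, limma adjusted p = 0.025), Dusp6, a phosphatase that inactivates ERK (-0.68, limma adjusted p = 0.0236), and Spred1, an inhibitor of RAS signalling, which was higher (0.67, limma adjusted p = 0.0334). Each of these 3 calls was lost without some single libraries: Etv1 without WT 1 or WT 4, Dusp6 without WT 1, WT 4, WT 5 or mutant 4, and Spred1 without WT 5, mutant 1, mutant 2 or mutant 4. In the 6 Y-expressing libraries 6 of the list were called lower and none higher, without mutant 4 and mutant 5 there were 3 and none, and with the decidua covariate 1 and none. Etv4 (adjusted p = 0.0614) and Spry4 (adjusted p = 0.0798) were among the calls lost without mutant 4 and mutant 5.

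The genes with the most similar profiles over the 8 libraries were found for each called member by the root-mean-square difference in log2 level, each centred on its WT mean, among 12106 candidates. For Fgf3 they were Igdcc3 (0.156), Evx1 (0.168), a homeobox gene of the posterior streak, and Fn1 (0.192), which encodes fibronectin. For Fgf8 they were Sema6a (0.199), Phyhipl (0.204) and Ahdc1 (0.226), and for Fgfr1 Zc3hav1l (0.0795), Ephb4 (0.0848) and Dennd2a (0.0904). Those of Fgf4 were Chrna4 (0.274), Npc1l1 (0.293) and Gpr162 (0.297). Fgf5 had no close match, the nearest being Arfgef3 at 0.371, then Tdgf1-ps1 (0.614) and Irs4 (0.686).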

How the data were processed

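Whole embryos, 4 per genotype, were profiled by bulk RNA sequencing; per the labels' protocols, cDNA was made with the SMART-Seq v4 kit and libraries with KAPA Hyper Prep. The tools named by the submitters' processing notes are DESeq, HTSeq 0.5.3, STAR 2.5.0a and cutadapt 1.6, with the build mm10; settings and gene annotation: not given in the sources used here. The values deposited by the authors are a signal: each library's gene counts over its size factor. Every value (100%) was a whole multiple of a step per column within 0.01 of a read, which gave back the reads; on them edgeR 4.0.16 called 2430 genes and DESeq2 1.42.0 3438, against 2431 with limma. Replicate pairs differed beyond sampling noise (chi-square per degree of freedom 17.3 to 75.3).

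limma 3.58.1 (R 4.3.3, trended variance prior, two-sided) was run on log2(scaled count + 1) for the 15600 genes that reached a scaled count of 10 in 4 or more libraries, with Benjamini-Hochberg adjustment at 0.05; the pseudocount understates changes of low genes. The fit was repeated with median centring, with quantile normalization, with a pseudocount of 0.5 or 5, unfiltered, on genes with a mean over 50, with edgeR (quasi-likelihood, TMM) and DESeq2, with a replicate block, without each library in turn, in the 6 Y-expressing libraries, without mutant 4 and 5 together, and with the mean decidua level as a covariate. Ratios used exact permutation tests (scipy 1.17.1). Coordinates and exon lengths come from GENCODE M21, to which 19878 of 19950 gene IDs matched; it is not known to be the annotation used for counting.

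Named were the 10 members, up to 4 members per pathway list past the threshold with the smallest p (2 where none passed), and the 3 nearest profiles per called member. The members, lists and alternatives were chosen with earlier results of these data known.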

Additional observations from a re-analysis of the deposited data

Results flagged for a closer look

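Among 20 tests of a library standing apart within its genotype (10 members, 4 libraries per group), 2 were positive, and chance alone flags about 1 in 20. Both came from mutant 1. Fgf3 was 5128 there against 2654 in the nearest mutant, a gap of 0.849 of the group's range, and Fgfr1 was 6025 against 3994, a gap of 0.894. Mutant 1 was the highest of all 8 libraries for 5 members (Fgf3, Fgf15, Fgf17, Fgfr1 and Fgfr3) and the lowest for Fgf5. Without it the log2 fold change of Fgf3 was 2.21 and that of Fgfr1 0.40, both still called.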

How the results depend on the processing

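Over all genes the fit called 1253 higher and 1178 lower. These counts were 528 and 493 in the 6 Y-expressing libraries, 707 and 723 without mutant 4 and mutant 5, and 175 and 166 with the decidua covariate, fits with fewer samples or fewer degrees of freedom; leaving out a single library gave 853 to 1295 higher and 734 to 1144 lower. Median centring gave 39.3% of calls higher against 51.5%, and moved the median of all genes by less than 0.1. Of the members, 2 were called higher and 3 lower. Higher calls fell to 1 with median centring, in the 6 libraries, without mutant 4 and mutant 5 and with the covariate (1 to 2 with a library left out), and lower calls to 1 in the 6 libraries and 0 with the covariate (1 to 4 with a library left out). Over all 6 pathway lists 8 were higher and 7 lower; higher calls were 14 with DESeq2, 3 in the 6 libraries and 3 with the covariate (5 to 7 with a library left out), and lower calls 4 without mutant 4 and mutant 5 and 1 with the covariate (5 to 9 with a library left out). The covariate also ended the Fgf5 call (adjusted p = 0.189), and reversed the direction of Fgf15 (0.52), Fgf13 (0.20) and Fgf2 (-1.99); without mutant 4 and mutant 5 Fgf15 was at 0.21. The cause was not tested.

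The ratio differences were -2.12 (Fgf8 to Fgf17), 1.95 (Fgf8 to Fgf5) and 2.77 (Fgf4 to Fgf5) in the 6 libraries, with exact p of 0.0667, 0.333 and 0.267, and -2.43, 3.32 and 3.50 without mutant 4 and mutant 5 (p = 0.0667 each, the smallest that 2 against 4 allows). With a library left out they ranged from -2.60 to -2.16, from 1.09 to 2.55 and from 1.17 to 2.81 (exact p up to 0.0286, 0.0857 and 0.114), and Fgfr1 to Fgfr2 from -0.035, reversed without mutant 1, to 0.36. For Fgf8 to Fgf17 these p-values too were fixed by the separation of both genes between the genotypes.

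The labels do not say whether the replicate numbers pair the samples. Deviations of same-numbered libraries correlated at -0.036, -0.166, -0.193 and -0.047, and those of differently numbered ones at -0.223 to 0.237. Because the deviations were centred within each genotype, these values cannot decide whether libraries shared a litter or batch. With the replicate number as a block, 910 genes were higher and 789 lower, 2 and 2 members were called, and the calls of Fgf4 (adjusted p = 0.104), Ugdh (0.0507), Spry4 (0.0531) and Dusp6 (0.072) were lost. Depth limits little here, since the lowest member had 61 reads in a library.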

Other observations

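Beside the cluster of FGF ligands on chromosome 7, the neighbouring cell cycle gene Ccnd1 had scaled counts of 5103, 4407.5, 3675 and 3349 in WT and 6679, 4878, 2035 and 3206 in the mutants, overlapping between genotypes and highest in mutant 1, as Fgf3 and Fgf15 were. Ano1, a chloride channel, had 139, 87.1, 19.1 and 37.9 in WT and 627, 126, 1774 and 753 in the mutants. Oraov1 had 502, 504, 508 and 550.5 in WT and 695, 728, 554 and 511 in the mutants. These genes were chosen for their position.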
